A study of Mus musculus with 3 samples.

Results

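The nuclear-encoded genes of the mitochondrial respiratory chain were followed across the cell types and the 2 ages of a single-cell RNA-seq data set of the mouse cochlea. Members were taken by symbol alone: the Ndufa, Ndufb, Ndufc, Ndufs, Ndufv, Uqcr, Atp5, Cox4, Cox5, Cox6, Cox7 and Cox8 genes together with *Sdha*, *Sdhb*, *Sdhc*, *Sdhd*, *Cyc1* and *Cycs*. This gave 96 of the 32285 genes in the count matrices. The rule itself used no measured value, but it was chosen with earlier results of these data known. Since it goes by symbol, it also took in 8 complex I assembly factors (*Ndufaf1* to *Ndufaf8*), which are not subunits of the finished enzyme, and 2 relatives of complex IV subunits, *Ndufa4l2* and *Cox7a2l*. Cochlear cells came from C57/B6 mice (C57BL/6J in the study's methods) with no transgene and no treatment. A single droplet library held postnatal day 14 (P14) tissue, when hearing has just begun in mice, and 2 libraries held P28 tissue, when it is mature. Each library pooled 14 cochleae of 7 mice, so the library was the replicate and animals could not be told apart. The lower end of the basal turn is under-represented because some of its epithelium did not survive dissection.

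Respiratory chain complexes sit in the inner mitochondrial membrane. Complexes I and II feed electrons from NADH and succinate into the chain, complex III passes them to cytochrome c, complex IV hands them to oxygen, and ATP synthase uses the proton gradient that results to make ATP. Most subunits are encoded in the nucleus, and a small set is encoded by the mitochondrial genome. Outer hair cells (OHCs), which amplify sound by changing length, inner hair cells (IHCs), which release transmitter onto the auditory nerve, and spiral ganglion neurons (SGNs), which fire at high rates, are all regarded as cells with a high demand for ATP.

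Many nuclear respiratory chain genes carry a site for nuclear respiratory factor 1 (NRF1) close to their start, and the promoters of 5 members with contrasting patterns are shown for that reason. *Ndufa5*, *Ndufb4* and *Ndufa8* encode complex I accessory subunits that were among the largest OHC differences below, *Sdha* encodes the flavoprotein of complex II, and *Cox7a1* encodes the heart and muscle form of a complex IV subunit. The windows run from 250 bases before to the base before the start in RefSeq on GRCm38.p6: *Ndufa5* at chr6:24527691-24527940 (minus strand), *Ndufb4* at chr16:37654369-37654618 (minus), *Ndufa8* at chr2:36049339-36049588 (minus), *Sdha* at chr13:74350241-74350490 (minus) and *Cox7a1* at chr7:30183921-30184170 (plus). Capitals mark every match to the NRF1 letters, which are GCGC, any base and TGCGC, or on the other strand GCGCA, any base and GCGC.
Ndufa5: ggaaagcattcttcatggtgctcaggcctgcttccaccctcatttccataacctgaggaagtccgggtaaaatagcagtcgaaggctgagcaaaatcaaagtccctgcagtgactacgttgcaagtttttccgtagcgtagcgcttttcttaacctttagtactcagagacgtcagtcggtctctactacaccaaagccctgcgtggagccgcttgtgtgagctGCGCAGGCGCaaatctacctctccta
Ndufb4: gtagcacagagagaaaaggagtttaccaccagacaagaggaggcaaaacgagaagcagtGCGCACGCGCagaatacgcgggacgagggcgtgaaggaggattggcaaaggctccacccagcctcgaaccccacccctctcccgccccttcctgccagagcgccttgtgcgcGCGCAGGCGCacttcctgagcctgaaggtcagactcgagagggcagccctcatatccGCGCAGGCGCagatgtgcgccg
Ndufa8: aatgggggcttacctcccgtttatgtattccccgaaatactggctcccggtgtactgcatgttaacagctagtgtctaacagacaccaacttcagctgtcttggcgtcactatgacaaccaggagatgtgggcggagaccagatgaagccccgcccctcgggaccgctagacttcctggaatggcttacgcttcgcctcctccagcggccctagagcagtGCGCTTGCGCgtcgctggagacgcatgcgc
Sdha: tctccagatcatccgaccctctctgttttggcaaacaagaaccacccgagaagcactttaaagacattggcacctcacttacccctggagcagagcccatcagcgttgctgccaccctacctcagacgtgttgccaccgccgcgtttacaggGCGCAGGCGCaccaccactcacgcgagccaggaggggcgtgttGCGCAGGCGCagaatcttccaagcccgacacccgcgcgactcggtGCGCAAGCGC
Cox7a1: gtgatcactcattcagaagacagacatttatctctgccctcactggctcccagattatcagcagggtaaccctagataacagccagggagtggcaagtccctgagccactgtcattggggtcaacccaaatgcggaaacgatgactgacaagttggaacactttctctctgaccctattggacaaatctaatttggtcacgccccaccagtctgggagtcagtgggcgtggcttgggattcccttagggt
*Ndufb4* and *Sdha* held 3 matches each, *Ndufa5* and *Ndufa8* held 1 match each within 30 bases of the start, and the *Cox7a1* window held none. In the GENCODE annotation of GRCm38 the genes span chr6:24518666-24528013 (*Ndufa5*), chr16:37647170-37654453 (*Ndufb4*), chr2:36036326-36049406 (*Ndufa8*), chr13:74322254-74350280 (*Sdha*) and chr7:30184144-30186078 (*Cox7a1*). These spans take the outermost start, so that they include the whole *Ndufa5* window and the bases of the other 4 windows nearest to the start. Of the 96 members, 76 had an entry in the RefSeq promoter table, counted over 250 bases before to 50 after the start. NRF1 letters were found in 19 of these 76 (25%) against 5.19% of all 27025 genes in the table. Of the other motifs searched, the YY1 letters AAGATGGC stood in 10 members (13.2% against 3.19% of all genes) and the oestrogen-related receptor (ERR) letters TCAAGGTCA in 2 (2.63% against 0.466%). ETS letters, CCGGAAGT, stood in 5 members (6.58% against 4.31%) and the TATA letters TATAAA in 8 (10.5% against 15.7%), all searched on both strands. A match is a string of letters and not a measured binding site.

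Barcodes with 200 to 6000 genes and at most 15% mitochondrial (mt-) UMIs were kept, where a UMI (unique molecular identifier) is 1 counted transcript. This left 1662 cells of 2513 barcodes at P14, and 5651 of 11948 and 7065 of 18196 in the 2 P28 libraries, with 7432047, 24596587 and 23300859 UMIs. Median UMIs per cell were 2477, 2421 and 2037, while the median mt- share was 6.24% at P14 and 10.0% and 10.8% at P28. Between 4 and 10 kept barcodes were shared by any pair of libraries. Levels are given in CPM, the UMIs of a gene divided by all UMIs of its class and library and scaled to a fixed total, and because each UMI is 1 molecule tagged at its 3′ end they can be compared between genes without a length term. Cells were clustered without the members, the mt- genes and the other pathway genes, and classes are called "-like" because they rest on marker genes. OHC-like cells were led by *Slc26a5* (prestin, 2026 CPM at P14, 532 and 655 at P28) and *Ocm* (31352, 17146 and 17502), and IHC-like cells by *Otof* (3328, 3046 and 2935). IHC-like cells held 3.96, 0 and 1.68 CPM of *Slc26a5*, while *Otof* was found at 69.8, 496 and 439 in OHC-like cells. All 7 OHC markers were found in OHC-like cells of every library, and their sum in IHC-like cells was 931, 910 and 1017 CPM. The 6 red blood cell markers, by contrast, summed to 238, 1252 and 7253 CPM in OHC-like cells, with 1 of the 6 at 0 at P14, and their part in the results was not tested beyond the fits without haemoglobin genes.

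Members accounted for 3.59% of all UMIs at P14 and for 2.86% and 2.83% in the P28 libraries. With the 3 libraries pooled, complex IV carried the largest share of member UMIs (29.0%, 18 genes). Next came the complex I accessory subunits (25.8%, 30 genes) and the Fo and stalk subunits of ATP synthase (18.5%, 12 genes). Complex III followed with 11.5% (9 genes) and the F1 subunits of ATP synthase, central stalk included, with 8.67% (5 genes). Small shares went to the 7 nuclear core subunits of complex I, which hold its redox centres (2.36%), complex II (1.45%, 4 genes), the assembly factors (1.14%) and cytochrome c (0.694%). Taken as whole complexes without the assembly factors, the order differed between the ages. At P14 complex I took 1.09% of all UMIs, ATP synthase 1.00% and complex IV 0.987%. At P28 complex IV led with 0.833% and 0.837%, against 0.802% and 0.774% for complex I.

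*Cox8a*, a small complex IV subunit, was the most abundant member with 119596 UMIs (2268 CPM at P14, 2171 and 2118 at P28), followed within its complex by *Cox6c* (65950) and *Ndufa4* (50491), which has a complex I name but belongs to complex IV. *Atp5e* led ATP synthase (61782 UMIs, with *Atp5l* at 36002 and *Atp5mpl* at 35831), and the hinge protein *Uqcrh* led complex III (42702, with *Uqcr11* at 41675 and *Uqcr10* at 30735). Within complex I the first places in these counts, summed over the 3 libraries, went to the accessory subunits *Ndufa7* (30576), *Ndufa2* (23840) and *Ndufa13* (22807). *Sdha* (10085), *Sdhb* (6076) and *Sdhc* (4584) were the most counted complex II genes, and *Cycs*, cytochrome c itself, gave 11316 UMIs. At the other end stood the tissue-restricted forms *Cox4i2* (276 UMIs in all), *Cox6a2* (38), *Cox8c* (5) and *Cox7b2* (3).

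Across classes the summed share of the members ranged over several-fold. At P28 it was highest in an unnamed cluster led by *Fxyd2* (5.14% and 5.30%, 95% exact Poisson intervals 5.10 to 5.18 and 5.26 to 5.33, 233 and 349 cells) and next in SGN-like cells (3.91% and 3.97%, 334 and 296 cells). The sulcus and Hensen's cell class (ISC/HeC/OSC-like) reached 3.44% and 3.34%, and OHC-like cells 3.13% and 3.21%. Reissner's membrane (RM)-like cells followed. This order covers classes with at least 20 cells in both P28 libraries. Intermediate cell-like cells, of which the first library held 4, are left out. They reached 3.61% in the second (177 cells), above ISC/HeC/OSC-like and OHC-like cells there. IHC-like cells stood well below OHC-like cells at P28, at 2.09% and 2.12%. Macrophage-like cells (2.00% and 1.99%), fibrocyte-like cells (1.86% and 1.91%), tympanic border cell (TBC)-like cells (1.85% and 1.83%) and red blood cell (RBC)-like cells (0.685% and 0.921%) came last. Neighbours in this order such as OHC-like and RM-like cells (means 3.17% and 3.05%, SD 0.0561 and 0.0749, n = 2 libraries each) lay close to each other, whereas OHC-like and IHC-like cells (2.10%, SD 0.0204) were many SDs apart. The order depends on the total used. Over UMIs without mt-, ribosomal protein and haemoglobin genes, RBC-like cells held 3.32% and 3.73% at P28. Macrophage-like (2.71% and 2.80%), TBC-like (2.56% in both) and IHC-like cells (2.50% and 2.52%) were then lower. On that scale ISC/HeC/OSC-like cells (4.61% and 4.55%) stood above SGN-like cells (4.32% and 4.37%).

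**Figure D1:**
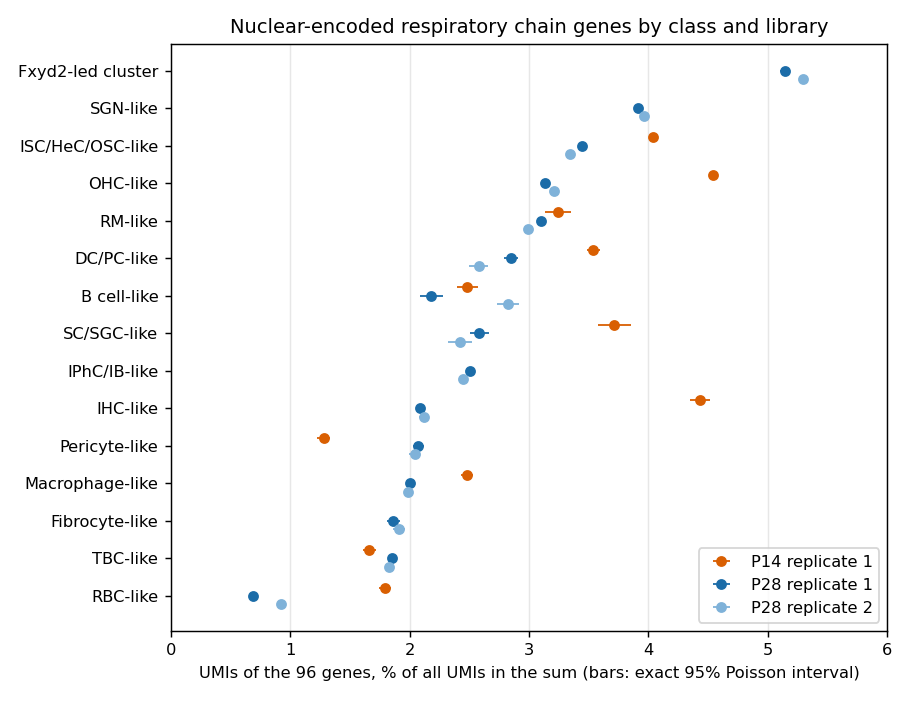
UMIs of the 96 genes as percent of all UMIs (x axis) by class (y axis) and library (colours), with exact 95% Poisson intervals as bars that cover counting error only. The classes shown had at least 20 cells in both P28 libraries, and the *Fxyd2*-led cluster is the only unnamed one. At P28 the *Fxyd2*-led cluster is highest at 5.14% and 5.30% and RBC-like cells lowest, while the P14 points of OHC-like (4.54%) and IHC-like cells (4.43%) lie far to the right of their P28 points.

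The order at P14 was different at its top. OHC-like cells (4.54%, interval 4.51 to 4.57, 277 cells) and IHC-like cells (4.43%, 4.35 to 4.52, 60 cells) then had the highest shares, above ISC/HeC/OSC-like cells (4.04%). An unnamed P14 cluster of 147 cells stood at 3.97%. No P14 cluster met the rules for SGN-like cells. P14 and P28 cells were clustered separately, so the *Fxyd2*-led cluster could hold P28 cells only.

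The members did not all peak in the same cells. Over 19 classes and clusters with at least 20 cells in both P28 libraries, 54 of 93 members had their highest mean CPM in the *Fxyd2*-led cluster. Another 19 were highest in SGN-like cells. All other genes were not ranked in this way, so the counts of highest and lowest members by class have no background. Intermediate cell-like cells were not ranked, though their *Cox8b* level, given below, was above that of SGN-like cells. OHC-like cells held the highest level of 5 members: the complex I subunits *Ndufa5*, *Ndufa8* and *Ndufv3*, the complex IV subunit *Cox6a1* and the small ATP synthase subunit *Atp5mpl*. The margin was narrow for *Cox6a1* (451 CPM against 443 in the *Fxyd2*-led cluster) and *Atp5mpl* (1085 against 1048 in SGN-like cells). ISC/HeC/OSC-like cells ranked first for *Atp5e*, *Atp5g2*, *Ndufa6*, *Ndufa7* and *Ndufaf8*. RM-like cells did so for *Cox8a* and, narrowly, for *Ndufs5* (472 CPM against 468 in SGN-like cells). *Cox8a* reached 4749 CPM in RM-like cells of P28 replicate 1 against 2813 in the *Fxyd2*-led cluster and 1840 in SGN-like cells, whereas *Ndufa4* was at 2167 in the *Fxyd2*-led cluster, 1395 in SGN-like and 921 in OHC-like cells of the same library. RBC-like cells had the lowest level of 85 of the 93, in CPM of all UMIs with haemoglobin included.

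The *Fxyd2*-led cluster was left without a cell type name. Among its leading genes were *Fxyd2* (a regulatory subunit of the sodium pump), *Slc6a7*, *Kcnk2*, *Plin4*, *2900042K21Rik*, *Tyrp1*, *Actn2*, *Gdf15* and *Nat8f2*. It passed 5 fibrocyte markers, with *Otos* at 9404 and 6681 CPM and *Coch* at 3198 and 2871, yet none of them was among its leading genes, and *Tyrp1* is a marker of intermediate cells. Its mt- share was 11.4% in both libraries, and 4 and 1 of the 5 marginal cell markers were at 0. *Ppargc1a*, the coactivator that drives mitochondrial biogenesis, stood at 335 and 340 CPM there.

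The first comparison set OHC-like against IHC-like cells of the same library, and asked which of the 2 hair cell types held more transcript of each gene. OHC-like cells were higher for 45 of the 88 members tested and lower for 2, while 16.8% and 17.1% of all 9471 genes tested were called in those directions. The median log2 fold change was 0.53 over the members and 0.05 over all genes. Higher members spanned the chain: 6 of the 7 core subunits of complex I, 16 of 30 accessory subunits, 6 of 9 complex III genes, 9 of 12 complex IV genes, 7 of 17 ATP synthase genes and *Cycs*. Among the 4 complex II genes none was higher and *Sdha* was lower, and none of 7 assembly factors passed. The summed shares were close at P14 (4.54% in OHC-like and 4.43% in IHC-like cells), with ATP synthase at 1.24% and 1.31%. Some of the 45 were lower in OHC-like cells at P14, among them *Ndufb9* (834 against 848 CPM), *Ndufab1* (344 against 388), *Ndufb2* (289 against 329) and *Cox6b1* (555 against 594). A difference between the ages was not tested.

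*Ndufa8*, an accessory subunit on the intermembrane side of complex I, was at 422, 313 and 319 CPM in OHC-like cells of the P14, first P28 and second P28 library, and at 194, 69.1 and 70.6 in IHC-like cells. Its levels did not overlap between the 2 classes, and the log2 fold change was 1.97 (SE 0.227, edgeR adjusted p = 0.000136). *Ndufb4*, of the membrane arm, was at 764, 483 and 494 CPM against 333, 131 and 116 (log2 fold change 1.86, SE 0.195, adjusted p = 7.31e-05). Every OHC-like level of *Ndufb4* was above every IHC-like level. *Ndufa5*, an accessory subunit of the peripheral arm, was at 1068, 474 and 511 CPM against 357, 147 and 138 (1.86, SE 0.150, adjusted p = 1.54e-05), again with no overlap. The core subunit *Ndufs7*, which carries an iron-sulphur cluster, was at 254, 175 and 187 against 147, 86.7 and 58.9 (1.28, SE 0.191, adjusted p = 0.000674), and the complex IV subunit *Cox5a* at 829, 423 and 384 against 626, 156 and 146 (1.21, SE 0.216, adjusted p = 0.00202). *Cox5a* overlapped between classes across the ages but was higher in OHC-like cells within each library.

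**Figure D2:**
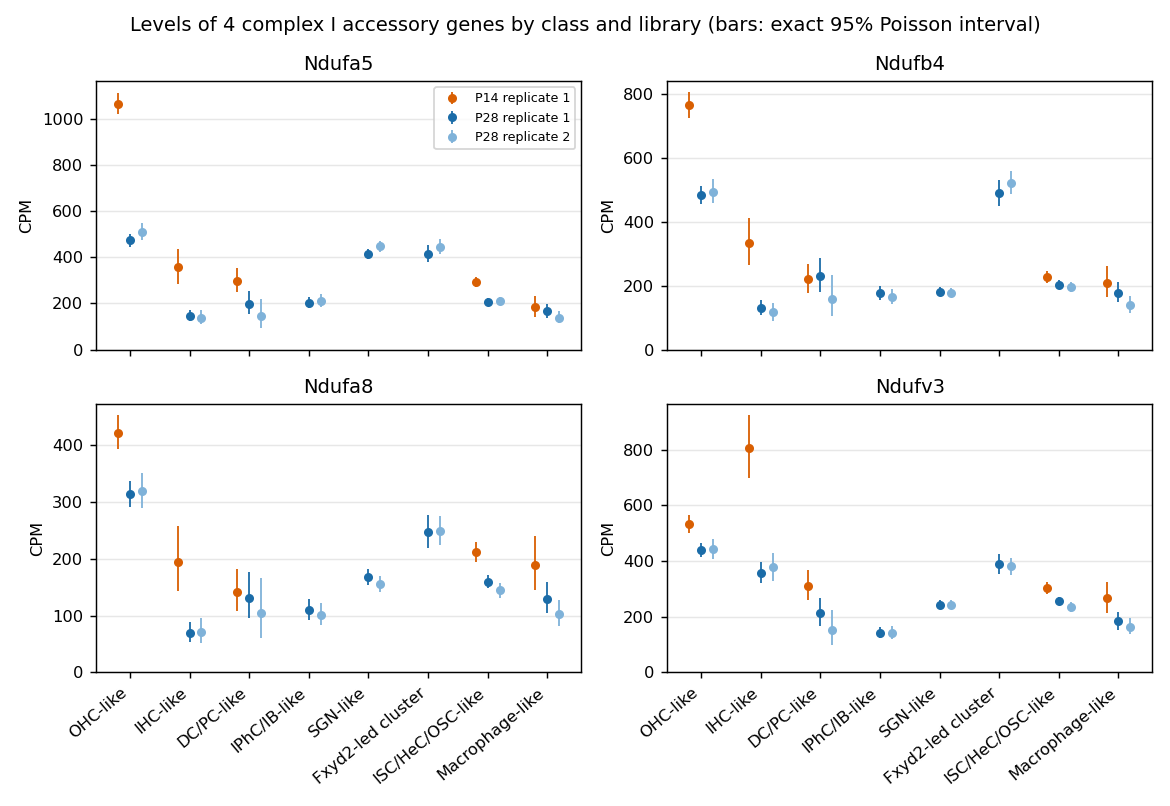
CPM (y axis) of *Ndufa5*, *Ndufb4*, *Ndufa8* and *Ndufv3* in 8 classes (x axis) and 3 libraries (colours), with exact 95% Poisson intervals. Within each library *Ndufa5*, *Ndufb4* and *Ndufa8* are higher in OHC-like than in IHC-like cells, while the P14 level of *Ndufv3* is higher in IHC-like (804) than in OHC-like cells (532).

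*Cox8a*, the most abundant member, reached 3131, 3288 and 3496 CPM in OHC-like cells but 2543, 1691 and 1847 in IHC-like cells (log2 fold change 0.87, SE 0.155, adjusted p = 0.00203). Among the others that were higher, *Atp5mpl* reached 1.19, *Ndufv1*, the NADH-binding flavoprotein subunit, 1.01, *Atp5j2* 0.96 and *Cycs* 0.62 on the log2 scale. Both lower members had the higher CPM in IHC-like cells of every library. For *Sdha* the OHC-like levels were 123, 169 and 159 CPM and the IHC-like levels 250, 249 and 232 (−0.55, SE 0.159, adjusted p = 0.0247). *Cox7a1* was at 5.33, 5.27 and 9.41 against 55.5, 15.5 and 18.5 (−1.80, SE 0.482, adjusted p = 0.0170), from 10 to 15 UMIs in each sum. The count of 45 fell in several alternatives, given here with the genes called higher among all tested. It was 8 of 87 without the first P28 library (774 of 9252) and 8 of 89 without the second (874 of 10092). Without the pairing by library it was 4 of 88 (788 of 9471), and with DESeq2 23 of 88 (891 of 9471). It was 7 of 86 (479 of 6641) under the study's limit of 3000 genes and 15000 UMIs per cell. With cells thinned to 1000 UMIs it was 11 of 80 (379 of 3577). The counts of 8, 4 and 7 were thus near or below the share over all genes. Without P14 the count was 67 of 88 (2365 of 9959). Scaling by library totals alone, which moved the median of all genes from 0.05 to −0.09 and their split from 1589 higher and 1623 lower to 1245 and 2009, gave 31 higher and 4 lower members.

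Set against all other kept cells, OHC-like cells were higher for 29 and lower for 11 of 93 members, where 24.3% and 30.6% of all genes tested were called. The median log2 fold change was 0.21 for the members and −0.09 for all genes. With at least 10 UMIs required in every sum, that median turned to −0.03 for the members (−0.02 for all genes). Of 88 members 16 were then higher and 13 lower (2297 and 2274 of 8678 genes). Accessory subunits of complex I gave 13 of the 29, again with *Ndufa5* (1068, 474 and 511 CPM against 254, 243 and 241 in the other cells, log2 fold change 1.44, SE 0.232, adjusted p = 0.00953), *Ndufb4* (1.43, SE 0.151, adjusted p = 0.00424) and *Ndufa8* (1.38, SE 0.115, adjusted p = 0.00294) in front. *Ndufv3*, a small subunit beside the NADH site, was at 532, 439 and 442 CPM against 274, 209 and 204 (1.12, SE 0.126, adjusted p = 0.00473). *Cox6a1*, the widely expressed form of its subunit, was at 808, 444 and 458 against 376, 245 and 259 (1.00, SE 0.109, adjusted p = 0.00448). For each of these 5 genes every OHC-like level was above every level of the other cells.

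The 11 lower members in OHC-like cells included 4 tissue-restricted forms, with the rest widely expressed. *Cox7a1* was at 5.33, 5.27 and 9.41 CPM against 58.9, 34.1 and 46.9 (−2.74, SE 0.302, adjusted p = 0.00460) and *Cox6b2*, known from testis, at 5.33, 2.43 and 2.17 against 13.9, 20.8 and 25.5 (−2.47, SE 0.442, adjusted p = 0.0121). *Ndufa4l2*, a hypoxia-inducible relative of *Ndufa4*, was at 0, 0.81 and 0.72 against 7.02, 13.9 and 17.2, and *Cox4i2*, a form of Cox4 also linked to low oxygen, at 0, 0.81 and 1.45 against 11.0, 5.74 and 3.83. These last 2 rest on 0 to 2 UMIs in each OHC-like sum, so no fold is given. Among the widely expressed subunits that were lower, *Uqcrb* of complex III was at 257, 199 and 190 CPM against 406, 398 and 376 (−0.81, SE 0.115, adjusted p = 0.00738), and *Cox6c* differed by −0.40. None of the 5 F1 and none of the 4 complex II genes passed in either direction. Without the first or the second P28 library, 2 and 6 of 93 members were higher (1118 of 13017 and 1416 of 13167 genes). Without P14, 40 were (4596 of 15131 genes). The fit without the library term called 14 higher (2634 of 13041 genes). The counts of 2, 6 and 14 were below the share over all genes.

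Deiters' and pillar cells (DC/PC-like) and inner phalangeal and border cells (IPhC/IB-like) support the hair cells in the organ of Corti, and their sum gave a comparison within the same epithelium. OHC-like cells were higher for 37 and lower for 8 of 91 members, against 25.7% and 26.1% of all genes tested, with a median log2 fold change of 0.38 for the members and 0.03 for all genes. *Cyc1*, the haem-carrying subunit of complex III, led with 266, 207 and 195 CPM against 67.2, 58.4 and 67.3 (1.77, SE 0.167, adjusted p = 0.000155). *Ndufb4* (1.59, SE 0.159), *Ndufa8* (1.57, SE 0.150) and *Ndufa5* (1.47, SE 0.174) followed. *Atp5b*, the catalytic beta subunit of ATP synthase, was at 705, 413 and 393 against 248, 149 and 173 (1.39, SE 0.156, adjusted p = 0.000326). Levels of *Cyc1*, *Atp5b* and these 3 complex I genes did not overlap between the classes.

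*Cox7a1* was again lower, at 5.33, 5.27 and 9.41 CPM in OHC-like against 183, 21.4 and 36.8 in supporting cells (−3.20, SE 0.571, adjusted p = 0.00283), and so were *Ndufaf2* (−0.94), *Uqcrb* (−0.89) and *Cox7a2l*, which takes part in supercomplex formation (−0.84). *Cox4i2* stood at 41.7, 15.6 and 11.2 CPM in supporting cells. No P14 cluster met the rules for IPhC/IB-like cells, so the P14 sum held DC/PC-like cells alone. Leaving out the first or the second P28 library lowered the 37 to 21 of 90 (1532 of 10234 and 1806 of 10838 genes). Dropping the library term lowered it to 19 of 91 (2106 of 10506 genes), near the share over all genes.

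**Figure D3:**
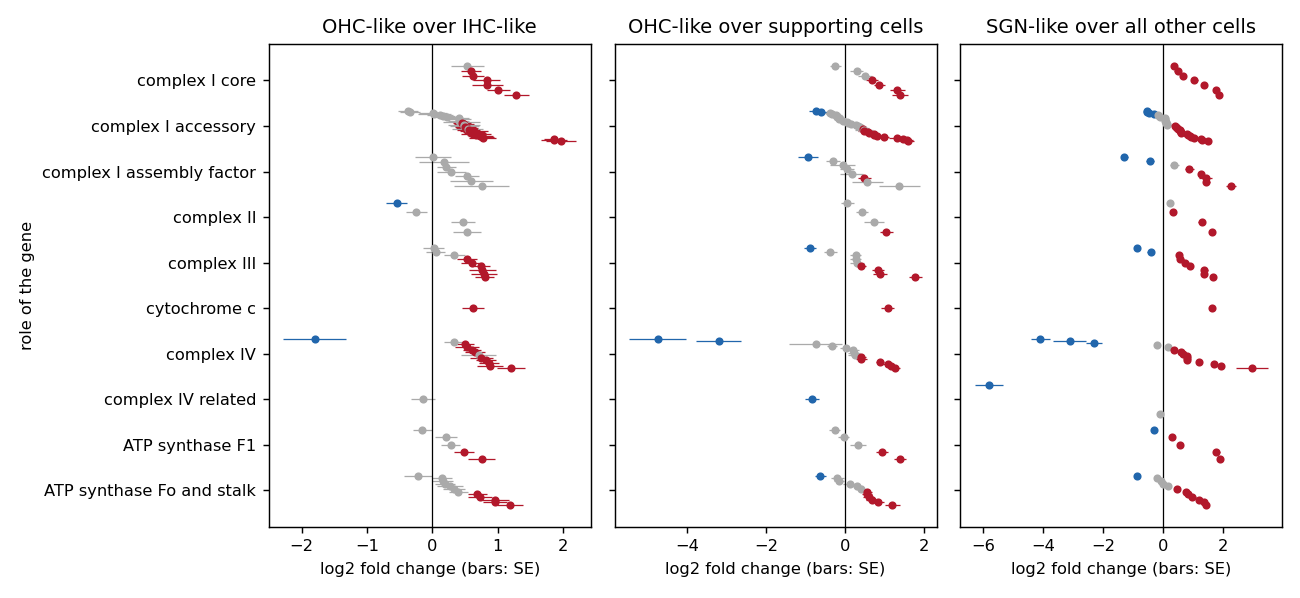
Log2 fold changes with SE bars (x axis) of the members grouped by role (y axis) for OHC-like over IHC-like cells, OHC-like over supporting cells and SGN-like over all other cells. Red points are higher and blue points lower at an adjusted p under 0.05 and grey points are neither, and the far-left blue points in complex IV include *Cox7a1*, *Cox6b2* and *Cox4i2*.

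IHC-like cells against all other cells gave 1 higher and 20 lower of 93 members, where 13.8% and 20.6% of all genes tested were called. The count of lower members was thus near the share over all genes. The median log2 fold change was −0.45 for the members and −0.13 for all genes. *Ndufv3* was the higher one, at 804, 358 and 377 CPM against 322, 227 and 214 (0.81, SE 0.201, adjusted p = 0.0133). Among the lower members, *Ndufs7* was at 147, 86.7 and 58.9 against 179, 177 and 171 (−1.08, SE 0.252, adjusted p = 0.0102), *Ndufc2* at 234, 67.1 and 89.1 against 258, 195 and 182 (−1.03, SE 0.265, adjusted p = 0.0157) and *Ndufa8* at 194, 69.1 and 70.6 against 233, 156 and 137 (−0.92, SE 0.225, adjusted p = 0.0126). These 3 genes were closer between the groups at P14 than at P28, a difference that was not tested. *Cox6b2* (0, 4.13 and 1.68 CPM against 12.1, 19.6 and 24.7) and *Ndufa4l2* (3.96, 1.03 and 0 against 5.29, 13.0 and 16.7) rest on 0 to 4 UMIs in each IHC-like sum. Without the P14 library 71 members were lower (4281 of 15138 genes). Without the first or the second P28 library 2 were (1229 of 13087 and 1747 of 13133 genes). Dropping the library term also left 2 (1751 of 13002 genes). With at least 10 UMIs required in every sum, 42 of 84 members were lower (909 of 4438 genes), above the share over all genes.

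Macrophage-like cells, taken as an immune cell type of the same tissue, had 1 higher and 18 lower of 93 members, against 15.0% and 16.8% of all genes tested. Here too the count of lower members was near that background. *Atp5g2*, a copy of the membrane ring subunit c, was the higher one (648, 708 and 544 CPM against 490, 525 and 465, log2 fold change 0.59, SE 0.177, adjusted p = 0.0372), and it was not called in 7 of the alternative fits that kept all 3 libraries. Scaling by library totals alone moved the median log2 fold change of all genes from −0.15 to −0.39. It gave 0 higher and 40 lower members, where 3249 of 13465 genes were lower. *Ndufa4* was at 574, 431 and 379 CPM against 1256, 891 and 867 (−0.89, SE 0.172, adjusted p = 0.00587), and *Cox7a1* differed by −1.53 (SE 0.290, adjusted p = 0.00541), *Ndufaf4* by −0.93 and *Ndufs1* by −0.79. *Cox8b* stood at 0, 1.38 and 8.90 CPM in macrophage-like cells. Without the P14 library 29 were lower (3074 of 15284 genes), and without the P28 libraries 2 and 3 (750 of 13568 and 1795 of 13494). Without the library term 2 were (1302 of 13465). With at least 10 UMIs required in every sum, 37 of 82 members were lower (813 of 4745 genes), above the share over all genes.

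SGN-like cells, named as a class at P28 alone, were compared with all other cells of their 2 libraries. Of 93 members, 60 were higher and 14 lower, where 34.9% and 41.6% of all genes tested were called, and the median log2 fold change was 0.57 for the members and −0.16 for all genes. All 7 core subunits of complex I were higher, as were 7 of 9 complex III genes, 10 of 15 complex IV genes, 11 of 17 ATP synthase genes, 3 of 4 complex II genes, 16 of 30 accessory subunits, 5 of 8 assembly factors and *Cycs*. *Cox5a* was at 963 and 923 CPM in SGN-like cells of the 2 libraries and at 247 and 226 in the others (1.94, SE 0.0993, adjusted p = 1.05e-06). *Atp5b* was at 1044 and 1040 against 263 and 282 (1.88, SE 0.102, adjusted p = 1.42e-06) and *Ndufs1*, the largest core subunit, at 137 and 140 against 36.7 and 35.9 (1.87, SE 0.101, adjusted p = 1.35e-06). The spread between the libraries was small beside these gaps.

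*Ndufaf5*, which modifies *Ndufs7* during assembly, was at 46.2 and 35.5 CPM against 8.41 and 8.08 (a log2 fold change above 2, SE 0.164, adjusted p = 6.98e-06). *Sdha*, lower in OHC-like than in IHC-like cells, was at 482 and 474 against 148 and 150 in SGN-like and other cells (1.62). *Cox8b*, the heart and muscle form of Cox8, had the largest fold: 163 and 191 CPM in SGN-like and 8.78 and 34.9 in other cells (2.96, SE 0.526, adjusted p = 0.00118). Of the lower members, *Cox6b2* was at 1.46 and 1.54 against 21.8 and 27.7 (−4.09, SE 0.308), *Cox7a1* at 10.5 and 7.41 against 34.6 and 50.7 (−2.30) and *Ndufaf8* at 71.6 and 71.9 against 169 in both libraries (−1.29, SE 0.102). *Ndufa4l2* gave 1 UMI in each SGN-like sum (0.29 and 0.31 CPM against 14.5 and 18.8), and *Cox4i2* stood at 0.88 and 0.31 against 5.95 and 4.24. *Ndufb4*, which was higher in OHC-like cells, was lower here and differed by −0.54, and *Ndufa7* differed by −0.53.

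The SGN-like class joined 3 clusters that differed in depth. Its main cluster (167 and 217 cells, median 18889 and 14021 UMIs) had 3.83% and 3.96% member UMIs. A shallower cluster led by *Gldn* and *Ngfr* (148 and 56 cells, median 1736 and 3135 UMIs), genes also known from glia around axons, had 4.86% and 4.49%, with *Cox7a1* at 40.9 and 20.1 CPM against 6.69 and 6.45 in the main cluster. *Cox5a* was at 923 and 908 CPM in the main and at 1359 and 1232 in the *Gldn*-led cluster. The third cluster resembled nuclei (19 and 23 cells), with member shares of 1.06% and 1.27%, *Cox5a* at 162 and 211 and no *Cox8b* UMI.

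Genes of the pathway outside the 96 were read from lists. Of the 13 subunits encoded by the mitochondrial genome, 12 were higher in OHC-like cells against all others (*mt-Nd6* differed by 0.40, adjusted p = 0.0928), 12 against IHC-like cells and 11 against supporting cells, where 24.3%, 16.8% and 25.7% of all genes were higher. In SGN-like cells 12 of the 13 were lower (41.6% of all genes), with *mt-Atp6* at 10466 and 9247 CPM against 21206 and 20254 in the others (−1.13), while most nuclear members were higher. The mt- share bears directly on which barcodes were kept and on every CPM, and its values by class were 12.5% and 11.9% in OHC-like, 8.72% and 8.24% in IHC-like, 4.94% and 4.68% in SGN-like cells at P28. Its part in the nuclear results was not tested beyond the fits without mt-, ribosomal protein and haemoglobin genes.

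The list of carriers and porins of the inner and outer membrane also held *Ckmt1*, a mitochondrial creatine kinase, and its 7 genes were all higher in SGN-like cells. Enzymes of the citric acid cycle and pyruvate dehydrogenase were higher in SGN-like cells for 15 of 16 genes, with 1 lower, and 5 of 16 were higher and none lower in OHC-like over IHC-like cells. Against supporting cells, OHC-like cells were higher for 12 and lower for 2 of the 16. A list of assembly factors outside the members included complex I factors without an Ndufaf symbol, such as *Foxred1* and *Ecsit*. Of these assembly factors, 23 of 41 were higher and 5 lower in SGN-like cells, and 7 of 37 were higher and none lower in OHC-like over IHC-like cells. Over all genes tested, the shares called higher and lower were 34.9% and 41.6% for SGN-like cells, 16.8% and 17.1% for OHC-like over IHC-like cells and 25.7% and 26.1% for OHC-like over supporting cells, so the 7 of 37 was near that background.

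Of the regulators of mitochondrial biogenesis, 8 of 14 were higher and 2 lower in SGN-like cells, and 3 of 10 were higher and 1 lower in OHC-like over IHC-like cells, where 34.9% and 41.6% and then 16.8% and 17.1% of all genes were called. *Ppargc1a* was at 510 and 567 CPM in SGN-like and 32.4 and 46.5 in other cells (3.71), and its partner *Esrrg*, a nuclear receptor, at 338 and 347 against 1.70 and 2.04 (7.45), from 36 and 41 UMIs in the other cells. *Nrf1* differed by −1.22 and *Gabpa*, the ETS factor of this pathway, by −0.74 in SGN-like cells. In OHC-like cells *Ppargc1a* was at 0, 2.84 and 13.0 CPM against 15.8, 18.6 and 30.3 in IHC-like cells (−2.00). Few UMIs lie behind this fold, 0, 7 and 18 against 4, 18 and 18. Its relative *Ppargc1b* was at 44.8, 59.5 and 68.1 against 15.8, 8.25 and 3.36 (3.06), with only 4, 8 and 2 UMIs in the IHC-like sums. *Esrra* (1.03) and the mitochondrial DNA polymerase *Polg* (0.74) were also higher in OHC-like than in IHC-like cells.

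The calls were then set beside the promoter letters. Of the 19 members with an NRF1 match, 9 were higher and 1 lower in OHC-like over IHC-like cells (median log2 fold change 0.55), and of 54 without a match 30 were higher and 1 lower (0.53). In SGN-like cells the counts were 15 higher and 2 lower of 19 with a match, and 32 higher and 9 lower of 56 without. *Sdha*, with 3 matches, was lower in OHC-like than in IHC-like cells, while *Ndufb4*, also with 3, was higher.

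Several subunits are encoded by more than one gene, with a common and a tissue-restricted form, and the share of UMIs within such a family does not depend on the scaling between classes. *Cox8b* gave 8.16% and 8.51% of the Cox8 UMIs in SGN-like cells (559 of 6854 and 620 of 7287). It was higher still, 17.0% (579 CPM), in intermediate cell-like cells, of which the second P28 library held 177 and the first 4. In the *Fxyd2*-led cluster it was 4.55% and 4.37%. At least 1 *Cox8b* UMI was found in 55.1% and 68.2% of SGN-like cells, or 19% and 16% after thinning to 1000 UMIs. Other classes, which differ in depth, give the background: OHC-like cells had a UMI in 0 of 365 cells in the first library, which allows up to 0.822% of cells with a UMI and sets no limit on cells that express the gene, and in 4.24% in the second, and RM-like cells in 0.699% and 3.77%. *Cox8b* CPM outside these 3 groups were higher in the second library for RM-like (19.4 against 2.65), ISC/HeC/OSC-like (18.5 against 2.32) and OHC-like cells (8.69 against 0), and free RNA from other cells was not tested.

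The Cox7a family was counted as *Cox7a1*, *Cox7a2* and the relative *Cox7a2l*. *Cox7a1* made up 19.1% and 18.3% of this family in the *Fxyd2*-led cluster (366 and 363 CPM, a UMI in 50.2% and 47.9% of cells). It made up 17.7% in DC/PC-like cells at P14, against 2.81% and 5.11% in DC/PC-like cells at P28. OHC-like cells were lowest of these, at 0.497%, 0.649% and 1.04%. *Cox6b2* gave 15.0% and 13.4% of Cox6b UMIs in pericyte-like, 14.3% and 14.9% in fibrocyte-like, 10.6% and 9.99% in TBC-like and 9.43% and 10.1% in B cell-like cells (5 and 10 UMIs) at P28, against 0.249% and 0.235% in SGN-like cells. At P14 it was 11.8% in pericyte-like and 10.4% in TBC-like cells. *Ndufa4l2* followed a similar distribution, with 5.83% and 6.39% of the *Ndufa4* family in TBC-like cells and 7.66% and 8.71% in the unnamed cluster led by *Grik1*, *Ccl11* and *Gpr83*. The share of *Cox4i2* in its family was 6.55% for DC/PC-like cells of the P14 library, and 2.82% and 1.99% for the IPhC/IB-like cells of the P28 libraries. ISC/HeC/OSC-like cells held more of its UMIs (33, 61 and 30) at shares of 2.21%, 1.72% and 1.22%. *Cox6a2*, the muscle form, gave 38 UMIs in all, with none in OHC-like or IHC-like cells of any library.

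**Figure D4:**
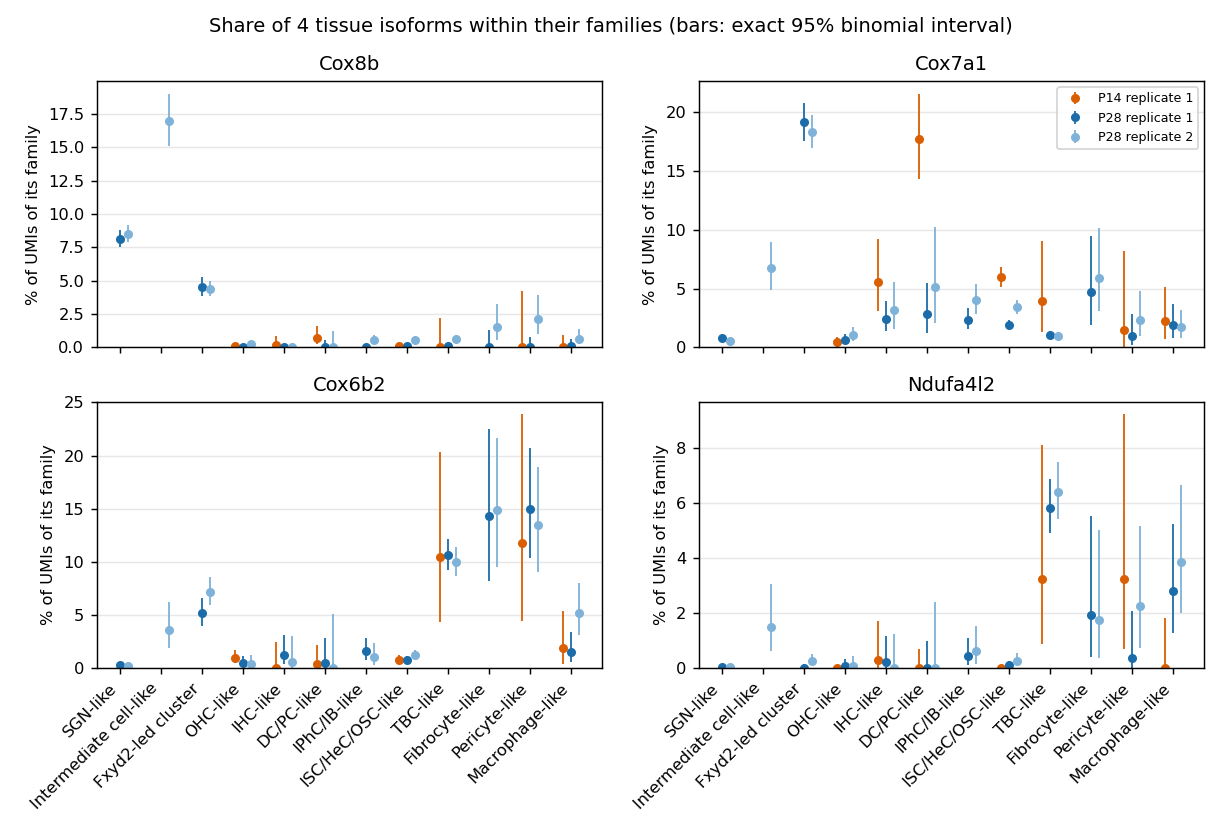
Share of *Cox8b*, *Cox7a1*, *Cox6b2* and *Ndufa4l2* in the UMIs of their family (y axis, percent) by class (x axis) and library (colours), with exact 95% binomial intervals. *Cox8b* stands out in SGN-like (8.16% and 8.51%) and intermediate cell-like cells, *Cox7a1* in the *Fxyd2*-led cluster, and *Cox6b2* in TBC-like, fibrocyte-like and pericyte-like cells.

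The 3 genes for subunit c of ATP synthase encode the same mature protein and were used in different proportions. *Atp5g1* gave 46.3% and 46.7% of subunit c UMIs in SGN-like cells, and 28.1% and 28.7% in OHC-like cells at P28. *Atp5g2* gave 55.1% and 55.0% in ISC/HeC/OSC-like cells at P28 (39.7% at P14), 50.7%, 58.3% and 51.9% in macrophage-like cells and 15.2% and 14.8% in SGN-like cells. *Atp5g3* was the main form in the *Fxyd2*-led cluster, with 46.2% and 46.3%.

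P14 and P28 were not tested against each other, since P14 had 1 library, and age and library cannot be told apart. A member was counted as apart when its P14 level was at least 1.5-fold above or below both P28 levels, with exact 95% Poisson intervals that overlapped neither and at least 30 UMIs over the sums. In OHC-like cells 37 of 89 members were apart with the higher level at P14 and 0 with the lower, where 7.37% and 12.6% of all genes were. The median log2 ratio of P14 over P28 was 0.56 for the members and −0.17 for all genes, and it was positive for 82 of the 89. Complex I gave 21 of the 37 (out of 37 subunits), ATP synthase 7 of 17, complex IV 5 of 12, complex III 3 of 9 and complex II 1 of 4, and no assembly factor was apart.

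*Ndufa1*, a small membrane subunit of complex I needed for its assembly, had the largest ratio: 902 CPM at P14 (860 to 946) against 310 (288 to 333) and 311 (283 to 342). Over all kept cells *Ndufa1* was also apart in level, at 764 CPM at P14 against 226 in both P28 libraries. *Atp5c1*, the central stalk subunit gamma, was at 546, 236 and 204 CPM in OHC-like cells. *Atp5k*, which helps ATP synthase to form dimers, was at 898, 352 and 410 there and at 603, 268 and 303 over all kept cells. *Ndufa5* was at 1068, 474 and 511, and *Cox5a* at 829, 423 and 384. In these genes the P28 libraries lay close together and P14 far above both. Other complex I members that were apart, by log2 ratio, included *Ndufs4* (1.10), *Ndufb1-ps* (1.03), *Ndufa9* (1.01), *Ndufs3* (0.97), *Ndufc2* (0.97), *Ndufa12* (0.91), *Ndufv1* (0.89), *Ndufa3* (0.88), *Ndufb9* (0.87), *Ndufs8* (0.75), *Ndufb5* (0.74), *Ndufb8* (0.68), *Ndufb11* (0.67), *Ndufb4* (0.64), *Ndufa11* (0.63) and *Ndufs1*, *Ndufa13* and *Ndufa10* (0.61 each). Among the other complexes these were *Atp5o* (1.08), *Atp5f1* (0.91), *Atp5h* (0.83), *Atp5b* (0.80) and *Atp5md* (0.70), then *Cox7c* (0.90), *Cox6a1* (0.84), *Ndufa4* (0.81) and *Cox5b* (0.75), then *Uqcr11* (0.81), *Uqcrfs1* (0.68) and *Uqcrc2* (0.61), and *Sdhd* (0.86).

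Not every abundant member followed. *Cox8a* was at 3131 CPM at P14 and 3288 and 3496 at P28 in OHC-like cells, *Sdha* at 123, 169 and 159, *Ndufa7* at 414, 559 and 557 and the assembly factor *Ndufaf8* at 138, 197 and 221. The ratio therefore varied within each complex.

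In IHC-like cells 61 of 86 members were apart with the higher level at P14 and 0 with the lower, against 6.12% and 7.17% of all genes, and the median log2 ratio was 1.15 (−0.20 for all genes). Complex I gave 29 of 37, ATP synthase 14 of 17, complex IV 9 of 12, complex III 6 of 9, complex II 1 of 4, with *Cycs* and 1 assembly factor. *Ndufa1* was at 891, 214 and 195 CPM, *Cox5a* at 626, 156 and 146, *Atp5k* at 828, 188 and 240 and *Atp5o*, a stalk subunit, at 281, 61.9 and 74.0. As in OHC-like cells, the P28 libraries lay together and well below P14. *Sdha*, at 250, 249 and 232, and *Ndufa7*, at 428, 390 and 457, were level across the ages, and *Cox8a* was at 2543, 1691 and 1847.

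**Figure D5:**
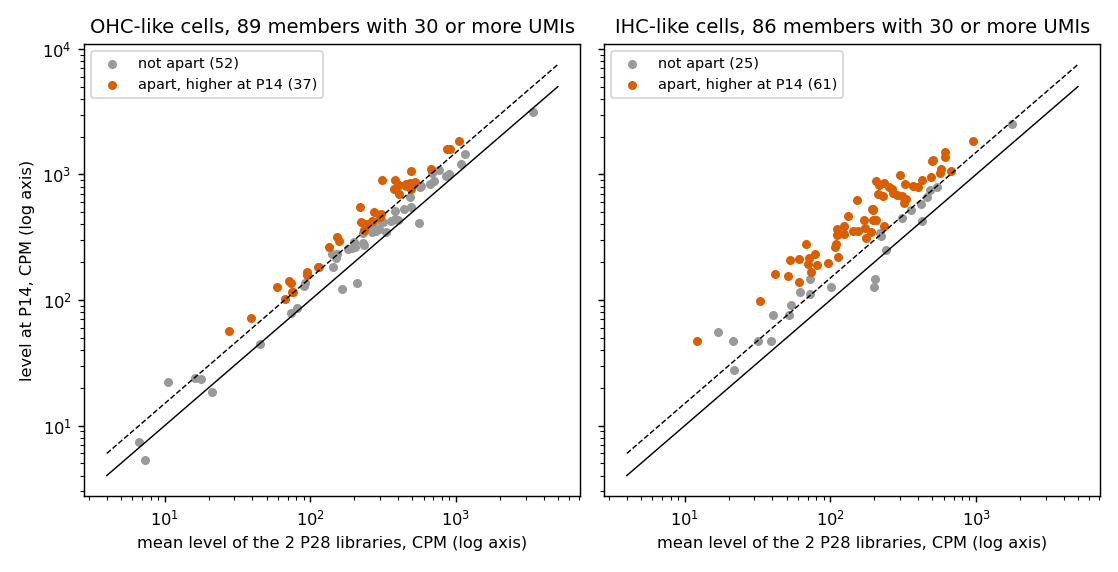
CPM of each member at P14 (y axis, log scale) against the mean of the 2 P28 libraries (x axis, log scale) in OHC-like (left, 89 members) and IHC-like cells (right, 86). Orange members are apart with the higher level at P14 (37 and 61), grey ones are not, the solid line marks equal levels and the dashed line a 1.5-fold difference.

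Depth, mt- share and the share of *Malat1*, a nuclear RNA, moved with age in these cells, and their part in the result was not tested beyond the values that follow. *Malat1* took 5.73% of UMIs at P14 and 1.12% and 1.35% at P28 in OHC-like cells, and 4.24%, 0.896% and 0.899% in IHC-like cells. The mt- share was 8.38% at P14 and 12.5% and 11.9% at P28 in OHC-like cells, and 6.64%, 8.72% and 8.24% in IHC-like cells. IHC-like cells had a median of 1026 UMIs at P14 against 9310 and 8008 at P28. Of the 60 IHC-like cells at P14, 41 had 500 to 2000 UMIs, so most of the 252424 UMIs in that sum came from the few deeper cells. At matched depth (500 to 2000 UMIs per cell) the member share of IHC-like cells was 5.79% in 41 cells at P14 and 2.85% in 28 cells of the first P28 library. OHC-like cells with 5000 to 10000 UMIs had 4.85% at P14 against 3.21% and 3.06%, while those with 2000 to 5000 UMIs had 3.81% against 3.49% and 3.51%. Taken over UMIs without mt-, ribosomal protein and haemoglobin genes, the share was 5.30% against 3.93% and 4.04% in OHC-like and 5.03% against 2.50% and 2.52% in IHC-like cells. Thinned to 1000 UMIs per cell, 20 of 83 members in OHC-like and 19 of 56 in IHC-like cells were apart. Under the limit of 3000 genes and 15000 UMIs 20 of 87 and 24 of 69 were. The share over all genes was not computed in these 2 settings, so these counts have no background. Thinned, the member share was 4.32% against 3.27% and 3.33% in OHC-like and 4.93% against 2.24% and 2.23% in IHC-like cells.

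Over all kept cells, hair cells included, 19 of 94 members were higher at P14 and 4 lower (13.4% and 21.4% of all genes). The other classes varied. In ISC/HeC/OSC-like cells 28 of 92 members were higher at P14 and 1 lower (9.79% and 8.58% of all genes), with *Ndufa1* at 1080, 357 and 332 CPM and *Ndufaf8*, the lower one, at 142, 249 and 269. Macrophage-like cells had 12 higher and 0 lower of 85 (4.91% and 5.51%), DC/PC-like cells 11 and 0 of 82 (6.71% and 3.72%), RM-like cells 8 and 0 of 86 (3.01% and 1.80%) and Schwann and satellite glial cell (SC/SGC)-like cells 11 and 0 of 75 (8.25% and 14.3%). In pericyte-like cells the direction was the opposite: 0 were higher and 21 of 82 lower (4.12% and 4.80%), with *Ndufs5* at 86.1, 276 and 271 CPM. The *Malat1* share of these pericyte-like cells was 9.79% at P14 against 3.36% and 3.70%, and its part was not tested. TBC-like cells had 1 higher and 7 lower of 93 (4.13% and 4.20%). In RBC-like cells 43 of 75 were higher and 0 lower, where 41.4% and 6.88% of all genes were, and in B cell-like cells 2 of 73 were higher and 0 lower (6.62% and 4.61%).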

How the data were processed

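Whole-cochlea cell suspensions were sequenced with 10x Genomics 3′ v3.1 chemistry in 3 libraries, 1 at P14 and 2 at P28. The authors deposited raw UMI counts per gene and barcode. The submitters' processing notes name Cell Ranger 6.0.1 and mm10, whereas the file headers name Cell Ranger 5.0.1. Kept barcodes had 200 to 6000 genes and at most 15% mt- UMIs. The study's own limits of 3000 genes and 15000 UMIs, an alternative here, left 1400, 4829 and 6391 cells.

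Cells were clustered in Seurat 5.3.0 (P14 alone, P28 after anchor integration, 2000 variable genes without the members, mt- genes and pathway lists, 30 principal components, resolution 1). A cluster was named from at least 3 markers, and the limits of that rule were set after the clusters were seen. Rebuilt names may differ from the study's. Scrublet in scanpy 1.11.5 marked 3, 0 and 1 cells as doublets, too few to be trusted, so the highest 5% of doublet scores were removed as an alternative.

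Counts were summed per class and library, so deeper cells weigh more, and tested with edgeR 4.0.16 (quasi-likelihood, TMM, filterByExpr) with library as a term, because the classes of a library come from the same suspension. Deviations of paired sums correlated at 0.336 to 0.628. SGN-like cells were tested without that term. Benjamini-Hochberg adjustment ran over all genes tested, at a threshold of 0.05. In the fits with 3 libraries, each a pool of animals, p-values measure how the class difference varied between libraries, 1 of which was P14. Age and pool both enter that variation. For SGN-like cells they measure the spread between 2 pools. DESeq2 1.42.0 was an alternative. The scripts were tested on simulated data. Exact Poisson and binomial intervals (95%) and limits from a count of 0 (3 counts) cover counting error only.

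The members and lists were chosen with earlier results of these data known. Named in each comparison were the 5 members per direction with the largest fold change among those past the threshold, moving the same way in every library with at least 30 UMIs. The isoform families, the 3 most counted genes of each complex and the members apart by age in OHC-like cells were also named, apart from an item that is not reported here. Others (*Cox8a*, *Atp5mpl*, *Ndufv1*, *Atp5j2*, *Cycs*, *Cox6c*, *Sdha*, *Ndufb4*, *Ndufa7* and *Ndufaf8* outside these rules) were named after their values were seen, as were the IHC-like genes by age and *Ndufs5* in pericyte-like cells. Respiratory chain genes have processed copies in the genome, and reads that such a copy shares with its parent gene cannot be assigned with certainty. Promoter sequences and gene starts are from RefSeq on GRCm38.p6. Figures were drawn with matplotlib 3.10.9.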

Additional observations from a re-analysis of the deposited data

How the results depend on the processing

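No named member changed direction in an alternative that tested it: of 1709 values, 1436 still passed the threshold and 273 no longer did. All had passed it in the main fit. Those with the largest changes also moved the same way in every library, so the choice made reversals unlikely. Alternatives that changed little, such as resolution 2 (103 passed, 4 did not), weigh in this total. Fewer passed in others: 36 (43 did not) with no replicate block, 29 (50) without P28 replicate 1 and 33 (46) without P28 replicate 2. Counts of members also varied, and so did counts over all genes. The fits without the block called 2634 of 13041 genes higher in OHC-like against all other cells. Against IHC-like cells they called 788 of 9471, and against supporting cells 2106 of 10506. With no replicate block, OHC-like against all other cells gave 14 higher and 7 lower (from 29 and 11), IHC-like against all other cells 0 and 2 (from 1 and 20), OHC-like against IHC-like 4 and 0 (from 45 and 2), OHC-like against supporting cells 19 higher (from 37) and macrophage-like cells 0 and 2 (from 1 and 18). At an unadjusted p under 0.05, edgeR then called 10, 11 and 18 members in either direction in the 3 comparisons with a 0. For SGN-like cells the replicate block gave 62 higher and 16 lower, near the 60 and 14 without it.

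Leaving out 1 library gave 2 to 40 higher and 2 to 18 lower for OHC-like against all other cells, 0 to 2 and 2 to 71 for IHC-like cells, 8 to 67 and 1 to 5 for OHC-like against IHC-like, 21 to 50 and 4 to 15 against supporting cells, and 0 to 1 and 2 to 29 for macrophage-like cells. These fits have fewer samples, and the highest counts came without P14. For SGN-like cells a library could not be left out, since 1 sum per side remains.

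A minimum of 10 UMIs in every sum gave 16 higher and 13 lower of 88 for OHC-like against all other cells (2297 and 2274 of 8678 genes). The median over the members was then −0.03 (from 0.21). IHC-like cells gave 0 higher and 42 lower of 84, where 909 of 4438 genes were lower. Macrophage-like cells gave 0 and 37 of 82, where 813 of 4745 genes were lower. These counts of 42 and 37 were above the share over all genes. DESeq2 gave 23 higher and 1 lower for OHC-like against IHC-like and 0 and 10 for macrophage-like cells. Library totals alone gave 4 lower for OHC-like against IHC-like, and 0 and 40 for macrophage-like cells. Without mt-, ribosomal protein and haemoglobin genes, 7 members were lower in OHC-like against all other cells, and 0 were higher and 8 lower in macrophage-like cells. No filter on low counts and removal of the highest 5% of doublet scores each left 0 higher in macrophage-like cells, the latter with 9 lower. An mt- limit of 30% gave 33 of 93 lower in IHC-like cells (3137 of 13121 genes).

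With 3000 genes and 15000 UMIs as limits, which removes the deepest cells, 7 were lower in OHC-like against all other cells, 6 in IHC-like, 10 in macrophage-like and 4 in SGN-like cells, and OHC-like against IHC-like gave 7 and 0. Thinned to 1000 UMIs the lower counts were 5, 5, 9 and 9, with 4 against supporting cells, and OHC-like against IHC-like gave 11 and 0. By age, 20 of 87 OHC-like and 24 of 69 IHC-like members were apart under the former. When thinned, an alternative added after the data were seen, 20 of 83 and 19 of 56 were. Shares over all genes were not computed for these counts by age. Isoform shares moved by more than their spread for *Cox6b2* in TBC-like cells (11.0%, from 10.3%), *Atp5g1* in SGN-like cells (48.2%, from 46.5%), *Atp5g2* in ISC/HeC/OSC-like cells (54.5%, and 54.7% at the 30% mt- limit, from 55.1%) and *Cox4i2* in IPhC/IB-like cells (2.99%, from 2.40%). Causes of these shifts were not tested. Depth limits the rare forms, which rest on few UMIs per sum.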
